A study of Mus musculus with 9 samples.

Results

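Prg2, Epx, Ear2, Ccr3, Il5ra, Alox15, Ccl11 and Ccl24 are 8 mouse genes of the eosinophil and of the chemokines that attract it, and they were followed on 9 whole-lung expression arrays. The genes were found through the RefSeq transcript given for each probe, which yielded 9 probes for the 8 genes, 2 of them for Il5ra, among 56605 distinct probes. They were chosen by measured values, since the levels of Prg2 and Alox15 had been seen to differ in opposite directions between late cre lungs and controls. The label "eosinophil genes" holds for what these genes are known for, not for a joint behaviour: Epx was below background on every array, and the other 7 genes did not move together.

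Eosinophils are granulocytes that mature in the bone marrow under interleukin 5, which acts through a receptor whose specific chain is encoded by Il5ra. Their granules hold cationic proteins, among them major basic protein (Prg2), eosinophil peroxidase (Epx) and ribonucleases of the Ear family. They enter tissues along gradients of the eotaxins CCL11 and CCL24, which act on the receptor CCR3, and they make 12/15-lipoxygenase (Alox15), which oxidises arachidonic and linoleic acid. None of these genes is exclusive to the cell: in mice Ear1, Ear2 and the surface lectin Siglecf are also transcribed in alveolar macrophages, and Alox15 is high in resident macrophages of the body cavities.

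All 9 mice carried floxed TRF1 alleles (TRF1flox/flox; TRF1, encoded by Terf1, is a telomere-binding protein) and all received tamoxifen, 250 mg per kg body weight each week from the age of 8 weeks. Controls were TRF1flox/flox littermates without cre, aged 11 months, with 9 months of treatment (n = 3). Of the SPC-cre TRF1flox/flox mice, 3 were aged 5 months with 3 months of treatment, here called 3-month cre, and 3 were aged 11 months with 9 months of treatment, called 9-month cre. The SPC promoter directs cre to alveolar type 2 cells, a minority of the cells whose RNA is in a whole lung. There was no control at 5 months, so the 3-month comparison joins genotype with age and length of treatment.

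Of the 4 arrays on slide 1, 3 were the controls and 1 was 3-month cre replicate 1. The other 5 lay on slide 2, so that no slide held both controls and 9-month cre lungs. Xist and Y-linked probes marked all controls as male, and in each cre group 1 animal as male and 2 as female. The share of spots well above background was 64.4% to 66.4% on slide 1 and 69.4% to 73.7% on slide 2. With slide as a fixed term, and likewise with sex as a covariate, limma called 0 of 16843 genes in either comparison with controls. At an unadjusted p under 0.05 there were 3148 genes at 3 months and 4608 at 9 months without either term. The slide term left 1142 and 839, and the sex term left 2194 and 3708. As all controls were male and on slide 1, genotype, slide and sex cannot be fully told apart in the comparisons with controls. Only 1 cre lung on slide 1 and 1 male per cre group bear on it. Each term also costs precision with 9 arrays, so the 0 calls have no single reading. Values within a slide or within males stand beside the results. Terf1 itself read -0.37, -0.05 and 0.20 in controls, -0.58, -0.68 and -0.62 in 3-month cre lungs and -0.41, -0.97 and -0.39 in 9-month cre lungs, as log2 level relative to the array 75th percentile. No comparison of Terf1 was called, and no source used here gives the place of its probe relative to the floxed part. The lung genes Sftpc and Scgb1a1 were bright on all arrays, at log2 levels of at least 7.89 and 7.90.

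**Figure D1:**
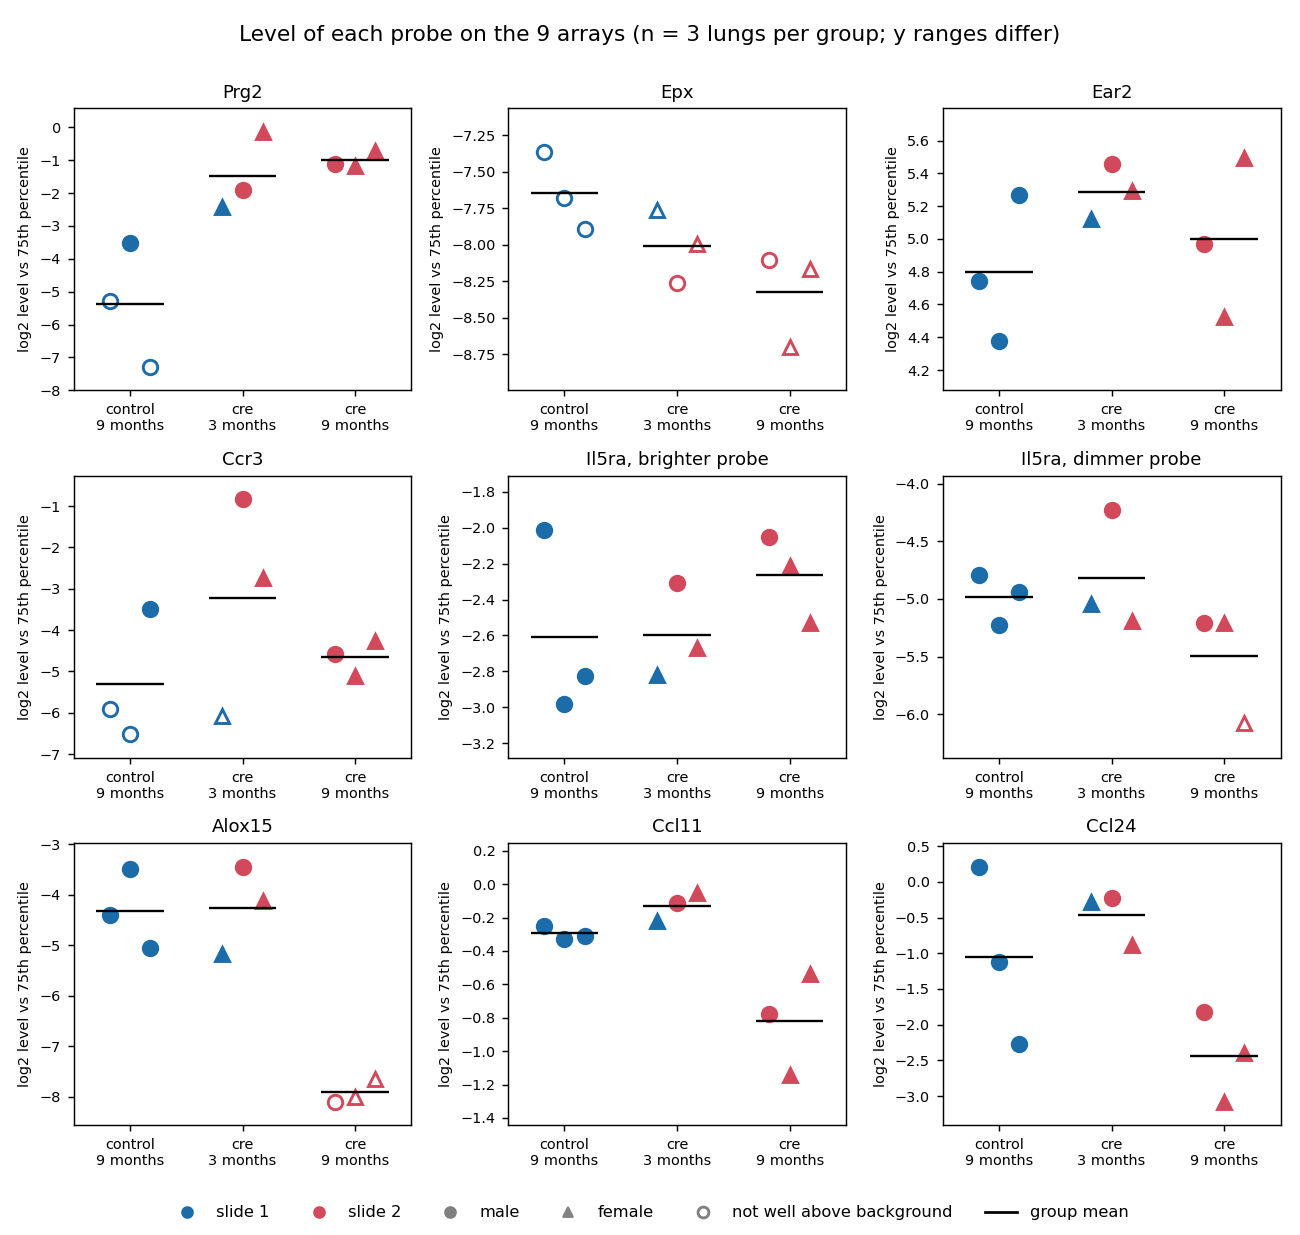
Log2 level relative to the array 75th percentile (vertical axes, ranges differ) of the 9 probes on the 9 arrays, 3 lungs per group; bars are group means, blue is slide 1, red slide 2, circles are male, triangles female, and open symbols are signals not well above background. Epx is open on every array, Alox15 only in 9-month cre lungs, and Prg2 in 2 of 3 controls.

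The plot of the 9 probes shows each lung as 1 symbol. Of the 8 genes 7 were tested, because their probe was well above background throughout 1 group or more, and Epx was not. In the comparison of 3-month cre lungs with controls, which did not serve to choose the genes but shares its controls with the one that did, 0 of 7 were called at an adjusted p under 0.05 in limma, where 0.368% of all genes were (0.303% higher and 0.0653% lower). At an unadjusted p under 0.05 there was 1 of 7, Prg2, beside 3148 of all 16843 genes. Cre lungs and controls had no overlap for 2 of the 7, Prg2 and Ccl11, both higher in cre lungs, beside 19.6% of all genes higher and 11.5% lower. The median log2 fold change of the 7 was 0.49, against 0.05 over all genes tested. In the comparison of 9-month cre lungs with controls 1 of 7 was called higher, Prg2, and 1 lower, Alox15, where 3.66% and 2.82% of all genes were called in those directions and 6.48% in either. No overlap was seen for Prg2, higher, and for Alox15 and Ccl11, lower, beside 17.5% and 15% of all genes. The median there was 0.20, against 0.02 over all genes. Between 9-month and 3-month cre lungs 0 were called higher and 2 lower, Alox15 and Ccl11, with backgrounds of 1.79% and 3.21%, or 5% in all. There was no overlap for 3, Alox15, Ccl11 and Ccl24, all lower, beside 19.1% of all genes lower and 14.6% higher, and the median was -0.69 against -0.03. The last 2 comparisons hold the late arrays on which the genes were chosen, so nothing is read from their counts and no p is given for the 8 genes in them.

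**Figure D2:**
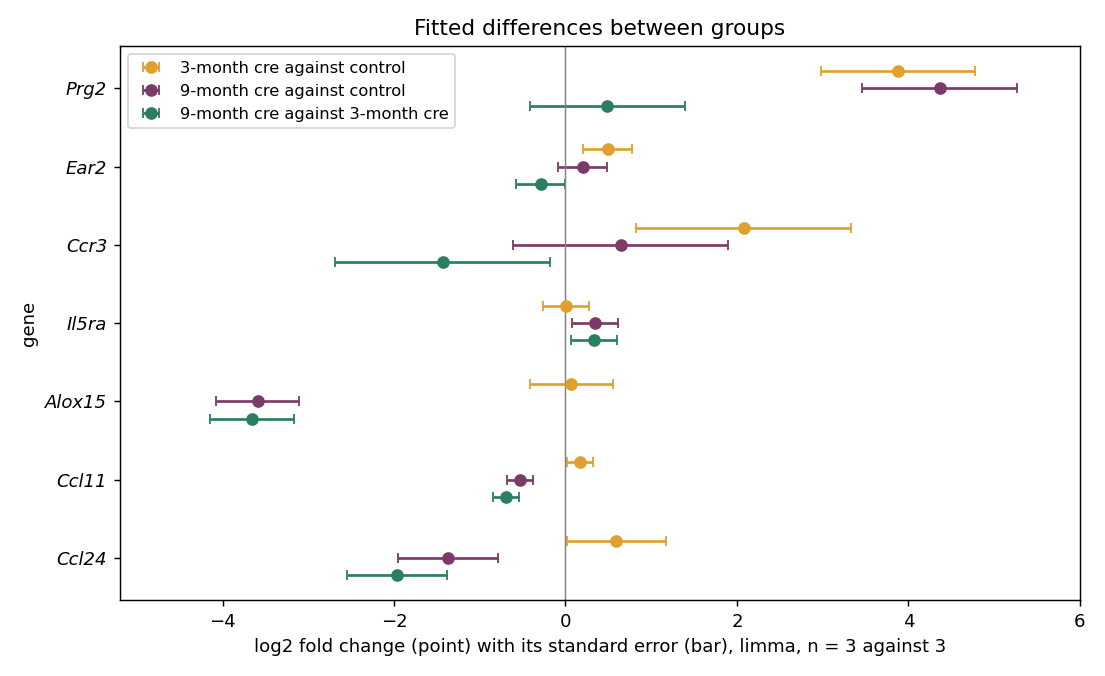
Log2 fold change (horizontal axis) with its standard error from limma for the 7 tested genes (vertical axis) in the 3 comparisons, 3 arrays against 3. Prg2 lies at 3.88 and 4.37 against controls, Alox15 at 0.07 and -3.59, the latter from late signals below background, and Ccl24 and Ccl11 change sign between the 2 collections.

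The plot of fitted differences places the genes side by side. Prg2 stood above controls at both collections. Alox15, Ccl11 and Ccl24 were near or above controls at 3 months and below them at 9 months. The standard error of Ccr3 was the widest of the 7, at 1.25.

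Prg2 (GRCm38.p6 chromosome 2, 84980461 to 84983632) encodes the proform of major basic protein, the toxic core protein of the eosinophil granule. Its processed signal was 27.0, 97.1 and 7.36 intensity units in the controls, of which only the second was well above background. It was 244.4, 382.7 and 1039 units in 3-month cre lungs and 444.5, 502.4 and 661.7 units in 9-month cre lungs. Every cre lung was thus above every control, and the 3-month and 9-month lungs overlapped.

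On the log2 scale the mean level of Prg2 was -5.36 ± 1.89 (SD, n = 3) in controls, -1.48 ± 1.20 at 3 months and -1.0 ± 0.25 at 9 months. The 3-month difference was 3.88 ± 0.90 (SE), with a 95% interval of 1.81 to 5.95, and it was not called (limma, adjusted p = 0.108; range over the alternatives 0.0655 to 0.725). The value was 2.94 within slide 1, from the single cre lung there, and 3.46 within males. The 9-month difference was 4.37 ± 0.90, or 20.6-fold, and 4.26 within males. With dim signals raised to the lowest signal that the software took as well above background, these became 3.24 and 3.73. The call at 9 months was lost in 10 of 23 alternatives, while its direction held in all 23, with values from 2.38 to 5.29. Prg2 was chosen for its direction on these arrays, so the same direction after reprocessing them is no added support. Control replicate 1, control replicate 3, 3-month cre replicate 2, 9-month cre replicate 1 and 9-month cre replicate 3 each ended the call when left out, with values of 3.40 to 4.42. The levels of 9-month and 3-month cre lungs differed by 0.49 ± 0.90, within the spread of the arrays.

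Of the 3 control signals of Prg2, 2 were near background, and a dim signal moves far on a log scale. Over the 9 arrays, which share groups, slides and sex, the genes most like Prg2 by Pearson correlation were Jchain, the joining chain of secreted IgA and IgM (r = 0.98), St18, a transcription factor (r = 0.97), and Oosp1, named as an oocyte-secreted protein (r = 0.94). Jchain stood at 2.40, 3.78 and 0.59 in controls, at 5.15, 4.32 and 6.83 at 3 months and at 5.77, 5.22 and 6.0 at 9 months, as log2 levels. Its control order, with replicate 2 highest and replicate 3 lowest, was that of Prg2, and unlike Prg2 it was well above background on all 9 arrays. The 3 genes were picked for their correlation with Prg2 on these same arrays, so a like order follows in part from that choice. St18 was well above background in 0 of 3 controls and Oosp1 in 1 of 3, so their control values are as dim as those of Prg2.

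**Figure D3:**
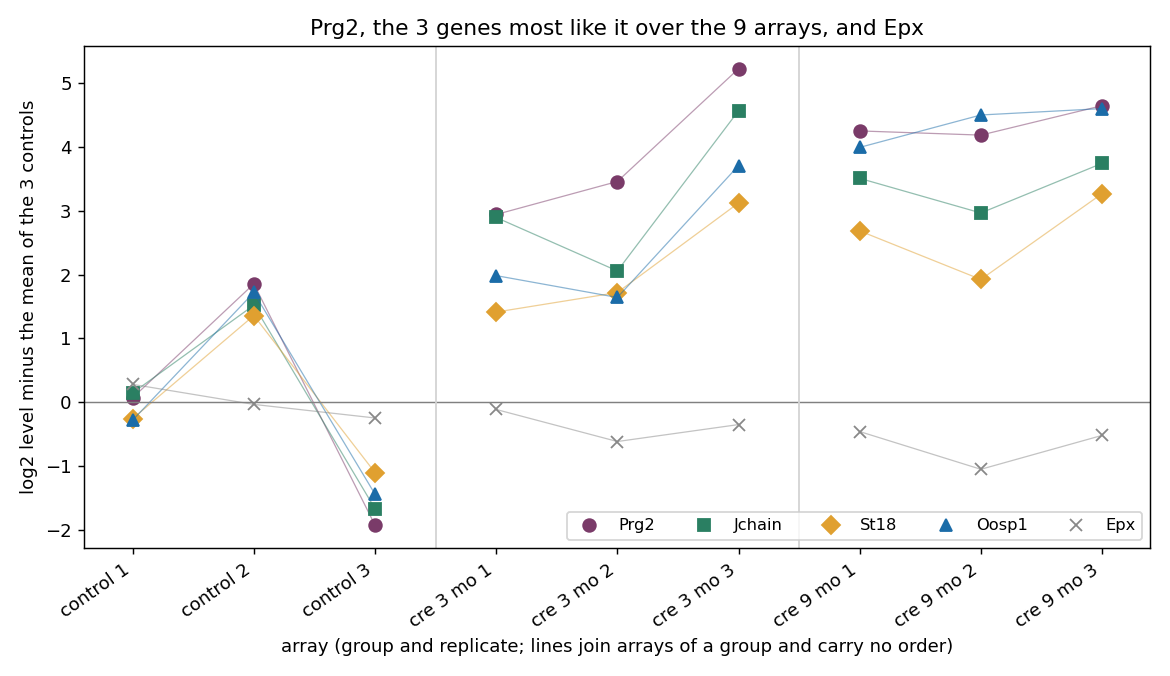
Log2 level minus the mean of the 3 controls (vertical axis) for Prg2, its 3 most similar genes and Epx on each of the 9 arrays (horizontal axis); thin lines join arrays of a group and carry no order. Prg2 shares its order among the controls with Jchain, St18 and Oosp1, which were picked for their correlation with it on these 9 arrays. Epx, below background on all 9 arrays, does not follow them.

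Because Jchain is a product of plasma cells, a list of 15 plasma cell and B cell genes was drawn up after these values were seen, and it is given as values with no test. The mean level of the list was -0.01 to 0.30 in controls, 0.46 to 1.23 in 3-month cre lungs and 0.68 to 0.82 in 9-month cre lungs. Of the 15 genes 10 were higher than controls at 3 months and 11 at 9 months, with median differences of 0.56 and 0.52. The list holds Jchain itself, which differed from controls by 3.18 and 3.41, the most of the 15. The means and counts of the list therefore partly repeat the Jchain values that led to it. Besides Jchain, Mzb1, a chaperone of antibody-secreting cells, and Tnfrsf17, the BCMA receptor of plasma cells, each correlated with Prg2 at r = 0.89, whereas the B cell genes Cd79a, Cd79b and Ms4a1 lay between -0.66 and -0.60. Other plasma cell genes followed Prg2 less closely. Sdc1, the surface proteoglycan CD138, correlated at r = 0.16, and the transcription factors Irf4 and Prdm1 at r = 0.40 and 0.47. At 3 and 9 months Sdc1 differed from controls by 0.60 and -0.084, Irf4 by 0.57 and 0.0052, and Prdm1 by -0.16 and 0.52. Of the rest of the list, Derl3, Xbp1, Pou2af1 and Fkbp11 correlated with Prg2 at r = 0.79, 0.76, 0.75 and 0.72. Tnfrsf13b and Eaf2 did so at r = 0.36 and 0.32. The part of plasma cells in the Prg2 result was not tested.

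Epx (chromosome 11, 87863997 to 87875536), the peroxidase that makes hypobromous acid in the same granules, gave signals of 2.73 to 6.42 intensity units over the 9 arrays. None of the 9 was well above background. The lowest signal the software took as well above background was 13.6 to 31.1 units per array, so Epx had only an upper bound everywhere and no fold is given.

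Ear2 (chromosome 14, 44102654 to 44103531) encodes an eosinophil-associated ribonuclease. Its processed signal was 28338, 22912 and 44508 units in controls, 45410, 62736 and 44644 units at 3 months and 30053, 26119 and 48955 units at 9 months. All 3 groups overlapped. The mean log2 level was 4.80 ± 0.45 (SD, n = 3) in controls, 5.29 ± 0.17 at 3 months and 5.00 ± 0.49 at 9 months, and no neighbours in that order differed beyond their spread. The 3-month difference was 0.49 ± 0.28 (SE; 95% interval -0.16 to 1.14; limma, adjusted p = 0.381), 0.32 within slide 1 and 0.66 within males. The 9-month difference was 0.20 ± 0.28 and that between the cre groups -0.29 ± 0.28.

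Ear2 belongs to a cluster of near copies. RefSeq start-site windows (GRCm38.p6) were at hand for 4 of the 8 genes, Ear2, Epx, Ccr3 and Il5ra, and those of Ear2 and its neighbour Ear1 are shown to make that likeness visible. The 250 bases before the start of each gene are printed 5′ to 3′ on the strand of the gene, and capitals mark the positions at which the aligned windows differ. Ear2 lies at chr14:44102404-44102653 on the plus strand and Ear1 at chr14:43819640-43819889 on the minus strand.
Ear2: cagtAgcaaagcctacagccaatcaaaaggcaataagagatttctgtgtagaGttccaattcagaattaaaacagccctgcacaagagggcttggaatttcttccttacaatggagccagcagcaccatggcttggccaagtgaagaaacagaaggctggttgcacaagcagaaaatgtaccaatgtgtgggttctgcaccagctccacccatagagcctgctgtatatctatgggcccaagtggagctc
Ear1: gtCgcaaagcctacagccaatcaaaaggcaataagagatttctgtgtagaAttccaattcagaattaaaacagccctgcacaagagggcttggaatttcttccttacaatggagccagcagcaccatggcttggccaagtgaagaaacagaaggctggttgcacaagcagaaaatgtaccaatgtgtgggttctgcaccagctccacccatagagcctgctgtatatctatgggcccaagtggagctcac

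The windows were identical at 246 of 248 aligned bases (99.2%), and the Ear2 window matched those of Ear10 and Ear6 at 94.3% and 93.0% of aligned bases. The probe sequences are not in the sources used here, so how far a probe for 1 of these ribonucleases also binds RNA of another is uncertain. The 4 genes ranked the controls alike, and Ear6 was the gene most like Ear2 of all tested (r = 0.96 over 9 arrays). Sh2d1b1 and Nploc4 came next, ahead of Ear1 and Ear10. The log2 fold changes at 3 and 9 months were 0.94 and 0.17 for Ear1, 0.90 and 0.38 for Ear6 and 0.66 and -0.02 for Ear10, and none was called. The adjusted p at 3 months was 0.217, 0.230 and 0.271 in that order (limma). In the same lungs the alveolar macrophage list (15 genes) had array means of 1.89 to 2.24 in controls, 2.57 to 2.64 at 3 months and 1.91 to 2.40 at 9 months. Of it 2 genes rose at 3 months, beside 0.303% of all genes tested. They were Atp6v0d2, a proton pump subunit of lysosomes, by 1.65 ± 0.22 and Mrc1, the mannose receptor, by 1.19 ± 0.15. Within slide 1 these values were 1.67 and 1.08. Fewer cells of a type and less RNA per cell cannot be told apart in whole lungs, and the part of alveolar macrophages in the Ear2 signal was not tested.

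**Figure D4:**
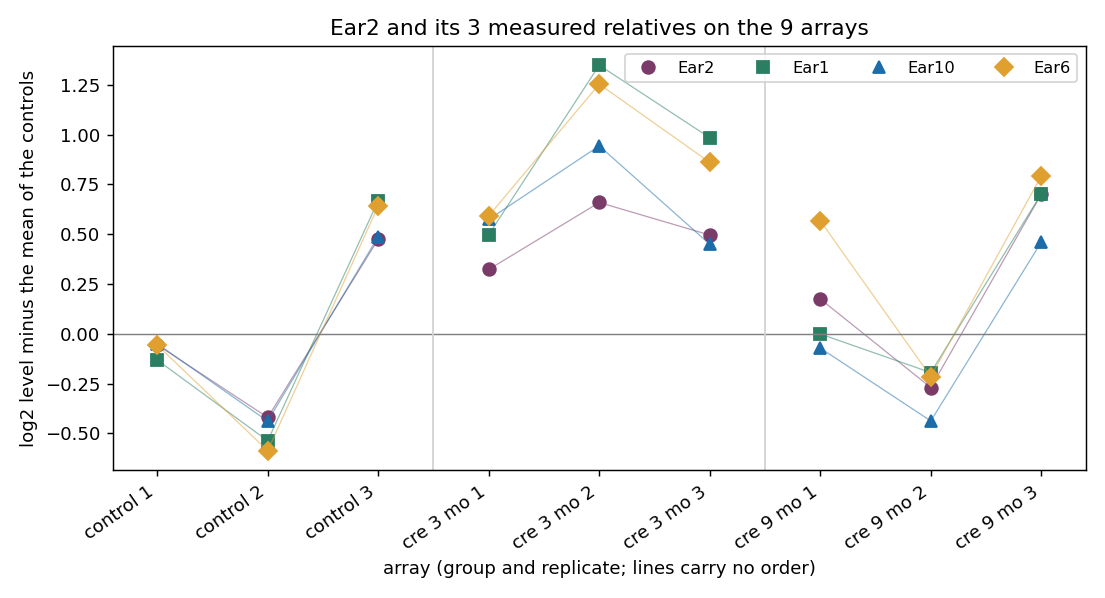
Log2 level minus the mean of the 3 controls (vertical axis) of Ear2, Ear1, Ear10 and Ear6 on each of the 9 arrays (horizontal axis); thin lines carry no order. The 4 genes rank the controls alike, with replicate 2 lowest and replicate 3 highest.

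The plot of the ribonucleases shows the 4 genes in the same order among the controls but apart on some cre lungs. On 3-month cre replicate 2 Ear2 stood 0.66 above the control mean, Ear10 0.94, Ear6 1.25 and Ear1 1.35. Control replicate 2, the only control with Prg2 well above background, was the lowest control for Ear2. Control replicate 3, lowest for Prg2, was the highest for Ear2. The order of control replicates 1 and 3 for Prg2 rests on signals not well above background.

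Ccr3 (chromosome 9, 124017825 to 124031692), the eotaxin receptor, was close to background. Its signal was 17.7, 12 and 103.4 units in controls, with 1 of 3 well above background. At 3 months it was 19.2, 800.6 and 169.2 units, with 2 of 3 well above background, and at 9 months 40.0, 32.6 and 56.1 units, with all 3. The 2 bright 3-month arrays were both on slide 2, and the groups overlapped. The mean log2 level was -5.30 ± 1.61 (SD, n = 3) in controls, -3.23 ± 2.66 at 3 months and -4.66 ± 0.43 at 9 months. The 3-month difference was 2.08 ± 1.25 (SE; 95% interval -0.79 to 4.95; limma, adjusted p = 0.399), but -0.78 within slide 1 and 4.47 within males, each with 1 cre lung. Without 3-month cre replicate 2 it was 0.88, and without 3-month cre replicate 1 it was 3.51. The 9-month difference was 0.64 ± 1.25, and -0.01 with dim signals raised to the floor.

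Il5ra (chromosome 6, 106710375 to 106749037) encodes the ligand-binding chain of the interleukin 5 receptor. Its brighter probe gave 263.0, 139.7 and 162.6 units in controls, 185.3, 289.0 and 179.2 units at 3 months and 231.7, 244.7 and 187.8 units at 9 months. All groups overlapped, and all signals were well above background. The mean log2 level was -2.61 ± 0.52 (SD, n = 3), -2.60 ± 0.26 and -2.26 ± 0.24 in controls, 3-month and 9-month lungs. The 3-month difference was 0.01 ± 0.27 (SE; 95% interval -0.60 to 0.62; limma, adjusted p = 0.992). At 9 months the probes disagreed: the brighter stood 0.34 ± 0.27 above controls and the dimmer, with signals of 16.0 to 76.2 units, 0.51 below, at -0.51 ± 0.31. Their mean was -0.08. Against controls neither probe gave a difference beyond its spread at either collection.

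Alox15 (chromosome 11, 70344147 to 70390538) gave 50.1, 97.9 and 34.6 units in controls and 36.0, 131.3 and 65.0 units in 3-month cre lungs, all well above background. In 9-month cre lungs it gave 3.50, 4.45 and 5.45 units, none well above background. Controls and 3-month lungs overlapped, and every 9-month lung lay below all 6 of them. The mean log2 level was -4.32 ± 0.79 (SD, n = 3) in controls, -4.25 ± 0.87 at 3 months and -7.91 ± 0.24 at 9 months. At 3 months the difference from controls was 0.07 ± 0.49 (SE; 95% interval -1.04 to 1.18; limma, adjusted p = 0.957), with -0.86 within slide 1 and 0.87 within males. At 9 months the fitted difference was -3.59 ± 0.49, but all late signals were below background, so only a bound on the fold holds. By that bound Alox15 was at least 3.22-fold lower than in controls and at least 3.38-fold lower than at 3 months. The bound sets each late signal to the dimmest one well above background on its array, or to its own value where that is higher. It compares group means and takes no account of the spread of the arrays.

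On slide 2, which held both 3-month and 9-month cre lungs, Alox15 was at least 4.66-fold lower in late than in early lungs by the same bound. It was at least 2.75-fold lower within females and at least 5.10-fold lower within males, and in the 1 late male it was at least 2.78-fold lower than in controls. The direction at 9 months held in all 23 alternatives, which is no added support, as Alox15 was chosen for it on these arrays. The call was lost in 5 of the 23, among them the fit with dim signals raised to the floor, much as in the bound. The value shrank to -0.84 with normexp background correction and -1.03 in the deposited value table. Of the genes most like Alox15 over the 9 arrays the first was Nr3c1, the glucocorticoid receptor (r = 0.96), then Prickle1 (r = 0.95) and Lrrn3 (r = 0.95). Nr3c1 averaged 4.14, 4.26 and 3.80 in controls, 3-month and 9-month lungs, so that its groups differed by far less than those of Alox15. The list of pleural and peritoneal macrophage and mesothelial genes, which bear on where Alox15 is high, had array means of 0.55 to 0.93 in controls, 0.05 to 0.52 at 3 months and 0.44 to 0.64 at 9 months. Of its 13 tested genes 0 were called at either collection (limma; 2 and 4 at an unadjusted p under 0.05, beside 3148 and 4608 of all 16843 genes). At each collection 9 of the 13 were below controls, with medians of -0.07 at 3 months and -0.12 at 9 months. At 9 months the brightest genes, Icam2 and Msln, stood at -0.12 and 0.48. The arrays lay wholly below controls for Timd4, a receptor of resident macrophages, at -0.66 ± 0.29, and for the mesothelial genes Lrrn4 and Upk3b at -1.65 ± 0.54 and -0.97 ± 0.36, and wholly above for Aspg at 0.78 ± 0.21. Gata6, the transcription factor of cavity macrophages, was at -0.32 ± 0.15. At 3 months the arrays lay wholly below controls for Prg4, Upk3b and Wt1, at -1.81 ± 0.55, -0.96 ± 0.36 and -0.87 ± 0.39, and wholly above for none. At 9 months Prg4 and Wt1 overlapped controls, at -0.10 and -0.22. Over all genes tested, 11.5% lay wholly below and 19.6% wholly above controls at 3 months, and 15% and 17.5% at 9 months. Beyond Icam2 and Msln these were singled out after their values were seen. The part of those cells in the Alox15 result was not tested.

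Ccl11 (chromosome 11, 82057832 to 82062955), eotaxin-1, is made mainly by fibroblasts, smooth muscle and epithelium. It gave 892.6, 880.1 and 929.8 units in controls, 1121, 1325 and 1097 units at 3 months and 558.7, 512.9 and 745.7 units at 9 months. No 2 of the 3 groups overlapped on the scaled levels, and the order was 9-month cre, then controls, then 3-month cre. The mean log2 level was -0.30 ± 0.042 (SD, n = 3) in controls, -0.13 ± 0.085 at 3 months and -0.82 ± 0.30 at 9 months. The 3-month difference was 0.17 ± 0.15 (SE; 95% interval -0.18 to 0.51; limma, adjusted p = 0.581), 0.07 within slide 1 and 0.18 within males. The 9-month difference was -0.53 ± 0.15, or 1.44-fold lower, and -0.48 within males, and it was not called. Between 9-month and 3-month cre lungs it was -0.69 ± 0.15, with -0.74 within slide 2, -0.70 within females and -0.67 within males.

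Ccl24 (chromosome 5, 135569935 to 135573123), eotaxin-2, is known as a product of macrophages and airway epithelium. It gave 1228, 507.7 and 239.5 units in controls, 1070, 1225 and 616.3 units at 3 months and 271.4, 134.0 and 206.3 units at 9 months. The controls spread over both cre groups, while no 9-month lung reached any 3-month lung. The mean log2 level was -1.06 ± 1.24 (SD, n = 3) in controls, -0.47 ± 0.37 at 3 months and -2.43 ± 0.63 at 9 months. The 3-month difference was 0.59 ± 0.58 (SE; 95% interval -0.74 to 1.92; limma, adjusted p = 0.609), 0.77 within slide 1 and 0.84 within males, and it was -0.01 without control replicate 3. The 9-month difference was -1.37 ± 0.58, or 2.59-fold lower, and -0.76 within males, and it was not called. Between the cre groups Ccl24 was at -1.97 ± 0.58, with -1.88 within slide 2, and was not called either.

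The 2 eotaxins therefore had the same order of group means, lowest at 9 months and highest at 3 months, with different spread in controls. The genes most like Ccl11 were Usp11, Gsg1l and Agk (r of 0.96 to 0.97), and most like Ccl24 were Agr2, a protein disulphide isomerase of mucus-secreting cells (r = 0.95), Dhps and Sult2b1. Fibroblast and smooth muscle genes had array means of 2.61 to 3.68 in controls, 2.86 to 3.06 at 3 months and 2.46 to 2.66 at 9 months. All 14 were below controls at 9 months, with a median of -0.54, and Dcn stood at -0.34 ± 0.18 and Tagln at -0.49 ± 0.26. Of the 14 genes 0 were called (limma; 3 at an unadjusted p under 0.05, beside 4608 of all 16843 genes). The part of fibroblasts and smooth muscle in the eotaxin levels was not tested.

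Around these genes, 16 further genes of eosinophils and their development were tested of 19 listed. At 3 months 0 were called, beside 0.368% of all genes, with a median log2 fold change of 0.56. At 9 months, when 3.66% of all genes were called higher and 2.82% lower, 3 rose and 0 fell, with a median of 0.74. They were Csf2rb2 by 1.31 ± 0.25 (limma, adjusted p = 0.0266), Csf2rb by 1.13 ± 0.23 (adjusted p = 0.0300) and Csf2ra by 0.91 ± 0.19 (adjusted p = 0.0341), chains of the receptors for interleukin 3, interleukin 5 and GM-CSF that neutrophils and macrophages carry as well. Within males the 3 stood at 1.22, 1.16 and 1.11. The other Csf2rb probes gave 1.18 and 0.72. Csf2rb2 is a near copy of Csf2rb, so how far their probes tell them apart is uncertain. Of the 16 genes 11 were above controls at 3 months and 13 at 9 months. Prg3 was well above background in 0 of 3 controls, 2 of 3 lungs at 3 months and all 3 at 9 months. It stood at 0.95 ± 0.58 and 0.77 ± 0.58, not called, with 9-month arrays wholly above controls, as for 17.5% of all genes. Cebpe stood at 1.88 ± 0.83 and 1.78 ± 0.83 and Ptgdr2 at -0.56 ± 0.25 and -0.06 ± 0.25, neither called. Prg3, Cebpe and Ptgdr2 were singled out after their values were seen.

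None of the 5 other CCR3 ligands was called, a count of 0 in limma beside 2 at an unadjusted p under 0.05 at each collection. Of all 16843 genes, 3148 at 3 months and 4608 at 9 months met that p. All 5 ligands had positive values at both collections, with medians of 1.36 and 1.62. Ccl8 stood at 1.36 ± 0.57 at 3 months and 1.78 ± 0.57 at 9 months, and Ccl5 at 0.10 ± 0.21 and 0.39 ± 0.21. Of 22 type 2 cytokines, alarmins and receptors, 16 were tested and 2 rose at 9 months, the interleukin 9 receptor Il9r by 1.54 ± 0.27 (limma, adjusted p = 0.0220) and Il13ra1, a receptor chain for interleukins 4 and 13, by 0.57 ± 0.13 (adjusted p = 0.0385), with a median of 0.29 and values of 1.19 and 0.71 within males. At 3 months 0 rose, with a median of 0.20. The shares of all genes called higher were 0.303% at 3 months and 3.66% at 9 months. The cytokines Il5, Il9 and Il25 were well above background on 0 arrays, and Il3, Il4 and Il13 on too few to be tested. Genes induced by interleukin 4 or 13 had medians of 0.65 at 3 months and 0.47 at 9 months. Their array means were 0.30 to 1.88 in controls, 1.87 to 2.10 at 3 months and 0.44 to 1.27 at 9 months. Of 19 tested, 1 rose at each, Mrc1, by 1.19 ± 0.15 (limma, adjusted p = 0.0299) and 0.81 ± 0.15 (adjusted p = 0.0266), and it is also on the alveolar macrophage list.

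**Figure D5:**
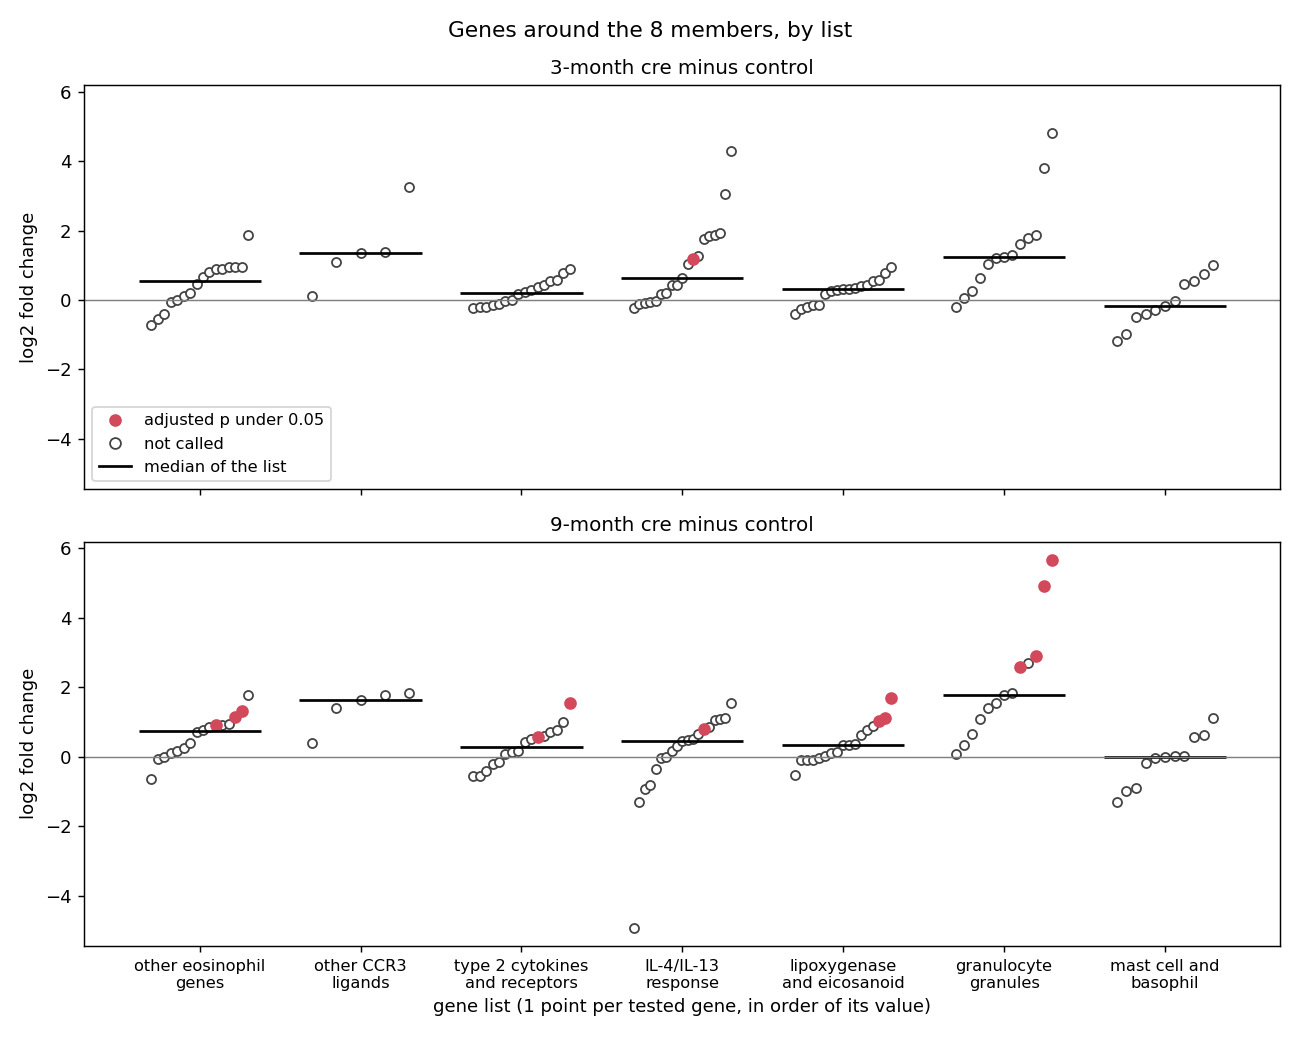
Log2 fold change (vertical axis) of each tested gene of 7 lists (horizontal axis) at 3 months (top) and 9 months (bottom) against controls; red points have an adjusted p under 0.05 in limma, bars are list medians. Red points are few, and the highest in the lower panel is Ngp, fitted at 5.67 from controls below background.

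The plot of the lists shows the genes that surround the 8 members, and some genes stand in 2 lists. Of all genes tested, 0.303% were called higher and 0.0653% lower at 3 months, and 3.66% and 2.82% at 9 months. Lipoxygenase and eicosanoid genes other than Alox15 included 3 of 17 that rose at 9 months and 0 that fell, with a median of 0.33, while 0 were called at 3 months. They were Fpr2, a receptor for lipoxin A4 and formyl peptides, by 1.70 ± 0.39 (limma, adjusted p = 0.0413), Alox5ap, the activator of 5-lipoxygenase, by 1.12 ± 0.27 (adjusted p = 0.0477), and Ptgs2, cyclooxygenase-2, by 1.03 ± 0.22 (adjusted p = 0.0332). None of the 3 encodes a lipoxygenase. Within males they stood at 1.68, 1.17 and 1.04, and the other Fpr2 probe gave 1.42.

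Granule genes of granulocyte precursors and neutrophils had medians of 1.23 at 3 months and 1.78 at 9 months. Of 13 tested, 4 rose at 9 months and 0 at 3 months, beside 3.66% and 0.303% of all genes. Ngp, a neutrophil granule protein, was fitted at 5.67 ± 0.85 above controls at 9 months (limma, adjusted p = 0.0163). As its controls were below background, the fold is a bound, at least 21.2-fold higher. Camp, the cathelicidin precursor, rose by 4.91 ± 0.79 (adjusted p = 0.0182) and Ctsg, cathepsin G, by 2.91 ± 0.51 (adjusted p = 0.0217). The fourth was Mpo, at 2.58 ± 0.44. Ngp was well above background in 0 of 3 controls and Ctsg in 1 of 3. Within males Ngp was at least 66.1-fold higher, and Camp and Ctsg stood at 6.85 and 3.75, the highest of the 9-month lungs being the male for each. Mast cell and basophil genes had 0 of 11 called at either collection (limma; 1 at an unadjusted p under 0.05 at each), with medians of -0.18 and -0.0022, and Hdc, which makes histamine, at 0.56 ± 0.32 at 9 months on its brighter probe and at -0.27 on the other. On the alveolar macrophage list Mrc1 and Atp6v0d2 (1.15 ± 0.22) rose and Fabp1, a fatty acid-binding protein, fell by 2.61 ± 0.41 at 9 months, and the median was 0.71 at 3 months and 0.31 at 9 months. Of the 8 lung genes 0 were called (limma; 1 and 3 at an unadjusted p under 0.05). Over all 16843 genes that p was met by 3148 at 3 months and 4608 at 9 months. All counts of called list genes against controls went to 0 with slide as a fixed term and with sex as a covariate.

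The genes most like Ccr3 over the 9 arrays were Mul1, Dnttip1 and Supt4b (r of 0.93 to 0.95), and most like Il5ra were Marchf7, Msmb and Camk2n2 (r of 0.89 to 0.90). No list contained any of these 6 genes.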

How the data were processed

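Total RNA of 9 whole lungs, labelled with Cy3, was hybridised to 1-colour Agilent arrays. The deposited scanner files hold spot intensity, background-subtracted per the file headers by Agilent Feature Extraction 10.7.3.1 and not scaled between arrays. The deposited value table holds intensity per probe with near-equal array medians (163.3 to 164.1) and followed the median pixel signal; no source used here names the tool. It served as an alternative.

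Irregular and control spots were left out (59305 of 62976 spots were not controls), spots of a probe were averaged, and log2 processed signal, computed from the deposited intensity, was taken relative to the 75th percentile of the probes of its array (958.6 to 1430 units). RefSeq transcripts named 32994 probes. Probes well above background throughout 1 group or more were kept (37647), and the brightest probe stood for a gene, giving 16843 genes. The number of arrays limits the precision, and no spot was saturated (0). The labels call the samples biological replicates. The 9 arrays entered a single limma 3.58.1 fit (R 4.3.3 with version 1.17.8 of data.table), two-sided, with 6 residual degrees of freedom and Benjamini-Hochberg adjustment over all genes. A gene was called at an adjusted p under 0.05. Windows were aligned with Biopython 1.88. The fit was tested on simulated data, and no outcome of that test is given here.

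The 8 genes and the gene lists were chosen with earlier results of these data known. Named from each list were up to 3 called genes with the widest fold change per comparison with controls, or the 2 brightest where none was called, and for each of the 8 genes the 3 with the highest correlation, leaving out clone and numbered names. Same-numbered samples of different groups correlated at -0.24 to 0.05 in 9 pairs, and differently numbered ones at -0.12 to 0.25 in 18 pairs. The samples were therefore not treated as paired by number, though with 3 arrays per group these values cannot exclude a pairing. Alternatives were normexp correction (offset 50), quantile and median scaling, the value table, other filters and probe rules, slide, sex and number as terms, 2 groups alone, and each array left out. Raising dim signals to a floor and a percentile over all spots were added after seeing the data.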

Additional observations from a re-analysis of the deposited data

Results flagged for a closer look

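The contrast of 9-month with 3-month cre lungs tests whether the difference from the shared controls changed between the 2 collections. Of all genes tested 5% were called in it, and 7 genes among the 8 members and the lists passed it. For 2 of them the test holds the late arrays on which the genes were chosen, and their values are a description: Alox15 was fitted at -3.66 ± 0.49 (SE) and Ccl11 at -0.69 ± 0.15. As the late Alox15 signals were all below background, the fold that can be stated for it is a bound, at least 3.38-fold lower. The other 5 were singled out after their values were seen, in limma with adjustment over all genes. Arg1, arginase 1 of macrophages activated by interleukin 4, was 1.88 above controls at 3 months and 0.93 below them at 9 months, a difference of -2.81 ± 0.59 (adjusted p = 0.0408), with -2.70 within slide 2 and the same direction within each sex. Mpo, myeloperoxidase, differed by 1.94 ± 0.44 (adjusted p = 0.0477), with 1.89 within slide 2. Car4 at -0.91 ± 0.19 (adjusted p = 0.0401), Cldn18 at -0.78 ± 0.16 (adjusted p = 0.0405) and Fcer1a at -0.75 ± 0.17 (adjusted p = 0.0462) were lower at 9 months. The call was lost in 7 of 23 alternatives for Alox15, 11 of 24 for Ccl11, 10 of 24 for Arg1, 11 of 24 for Car4 and for Cldn18, 14 of 24 for Mpo and 16 of 23 for Fcer1a, and none of the 7 changed direction. Age, length of treatment and disease stage differ together between these groups and cannot be told apart.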

How the results depend on the processing

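Each result was recomputed under up to 24 alternatives. For the 7 tested members, 439 of the recomputed fold changes kept direction and side of the threshold, 33 lost a call, 4 gained one and 19 turned sign. The number of called members at 3 months stayed 0 in every alternative run. At 9 months it went from 2 to 1 with normexp correction, the value table, no filter, the replicate block, the floor or 2 groups alone, and to 0 with the filter on all arrays (which drops Prg2, Alox15 and Ccr3), slide as a fixed block or sex. Between the cre groups it went from 2 to 1 with normexp, no filter, the filter on all arrays, sex or the floor, and to 0 with slide or the replicate block. Leaving out 1 array gave 0 to 0, 1 to 2 and 0 to 3 called members in the order 3 months, 9 months and between cre groups. Called genes ranged from 1 to 323 (main 62), 158 to 1639 (1091) and 0 to 1226 (842): 1 without control replicate 2, 3-month cre replicate 2 or 3-month cre replicate 3, 323 without 9-month cre replicate 3, 158 without control replicate 2, 1639 without 9-month cre replicate 2, and 0 without 3-month cre replicate 1.

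Other counts of called genes at 3 months were 14 with no filter, 198 with every probe, 176 with slide as a random block (consensus correlation -0.0963), 389 with 2 groups alone and 0 with slide fixed or sex. At 9 months they were 489 with no filter, 317 with the replicate block, 3537 with the random block, 186 with 2 groups alone and 0 with slide fixed or sex; quantile normalization turned the split of rises and falls from 616 and 475 to 536 and 587, and the value table to 557 and 658. Between cre groups they were 426 with median scaling, 104 with no filter, 2394 with every probe, 234 with sex, 335 with 2 groups alone and 0 with slide fixed or the replicate block.

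Sign turns stayed under 0.35 in size except under the slide block, where Ccr3 went to -0.78 at 3 months and -3.65 at 9 months, Alox15 to -0.86 and Il5ra to -0.21 at 3 months, and Ear2 to -0.052 at 9 months. At 3 months Alox15 turned to -0.044 with normexp and ranged from -0.34 (without 3-month cre replicate 2) and -0.30 (without control replicate 3) to 0.53 over left-out arrays. Il5ra turned to -0.044 with normexp, -0.014 with the percentile over all spots, and -0.18, -0.10 and -0.14 without control replicate 2, control replicate 3 or 3-month cre replicate 2 (up to 0.31 over left-out arrays), and with the mean of its probes to -0.084 at 9 months and -0.17 between cre groups. Over left-out arrays Ccl24 at 3 months ranged from -0.012 (without control replicate 3) to 1.23, and Ear2 at 9 months from -0.047 (without 9-month cre replicate 3) and -0.0076 (without control replicate 2) to 0.44. Ccr3 at 9 months was -0.0064 with the floor. Of list genes at 9 months, Gata2 turned to -0.030 (quantile), -0.025 (median), -0.010 (value table), -0.0038 (random block), -0.039 (without control replicate 1) and -0.27 (without 9-month cre replicate 1; highest 0.35), Scgb1a1 to -0.052, -0.045 and -0.042, and Sftpc to -0.033, -0.011 and -0.16 with quantile normalization, the value table and slide. Calls of the list genes named as called at 9 months were lost in 3 (Fabp1) to 14 (Alox5ap, Fpr2, Il13ra1) of 24 alternatives, and those of Mrc1 and Atp6v0d2 at 3 months in 8. The causes were not tested. Signals under about 31.1 units, as for Epx, Ccr3, control Prg2 and late Alox15, limit what can be measured.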

Other observations

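Genes of the response to interleukins 4 and 13 were looked at further after their values were seen, and no test is added for them. Arg1 read -1.85, -4.13 and -3.33 in controls, -1.02, -0.86 and -1.80 in 3-month cre lungs and -4.27, -4.61 and -3.22 in 9-month cre lungs, as log2 levels, so that every 3-month lung was above every other lung. The chemokine Ccl17 was at 2.56 to 2.69 in 3-month cre lungs, above all controls (-0.09 to 1.75) and above all 9-month lungs (0.70 to 2.5). Chil4, a chitinase-like protein, was at 2.28 to 2.66 at 3 months, with controls from -2.83 to 1.56 and 9-month lungs from -0.57 to 1.01. Clca1, a product of mucous airway cells, reached 6.0 in control replicate 1 and was at -1.13 and 0.19 in the other controls, and at -4.52 to -2.28 in 9-month cre lungs. Control replicate 1 was also the highest control for Chil4, Ccl17, Arg1, Ccl24 and Agr2. None of Arg1, Ccl17, Chil4, Clca1 and Agr2 was called against controls in limma.

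Ccl28, a mucosal chemokine that also binds CCR3, was well above background in 0 of 3 controls, all 3 lungs at 3 months and 2 of 3 at 9 months. It was fitted at 3.25 ± 0.64 above controls at 3 months, a difference that was not called (limma, adjusted p = 0.0804). As its controls were below background, the fold is a bound, at least 2.86-fold higher. Its 9-month level was too dim to bound a fold. Siglecf, which eosinophils share with alveolar macrophages, was at 0.81 to 1.28 at 3 months, -0.25 to 0.83 in controls and -1.32 to 0.14 at 9 months, and was not called.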
